A study of Mus musculus with 272 samples.

Results

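The chromatin of 10 imprinted genes was examined in mouse muscle stem cells (MuSCs): *H19*, *Igf2*, *Dlk1*, *Meg3*, *Rian*, *Mirg*, *Peg3*, *Mest*, *Grb10* and *Plagl1*. They were picked by name from the 55413 genes of the GENCODE M21 annotation (mm10) that lie on 21 assembled chromosomes. For comparison, 27792 of those genes that are annotated as protein-coding or lincRNA served as background. The study edited the genome of MuSCs with CRISPR-Cas9 in vivo and, beside the editing outcomes, mapped their chromatin. Of its 272 samples, 8 carry the lists of peaks used here, which are 2 replicates each of ATAC-seq, a measure of open chromatin, and of ChIP-seq for H3K4me3, H3K27ac and H3K27me3. H3K4me3 marks promoters, H3K27ac marks active promoters and enhancers, and H3K27me3 is the repressive mark laid down by Polycomb complexes.

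All 8 libraries form 1 group, since the labels name skeletal muscle and no treatment for them, and neither age nor strain is stated for these libraries. The cells came from Pax7Cas9 mice, in which Pax7-Cre switches on Cas9 and EGFP at the *Rosa26* locus, and GFP+ cells were sorted from hindlimb muscle. The reporter therefore also marks any cell that once expressed *Pax7*. Nothing in the sources used here says whether both replicates of an assay came from separate mice, so the spread between them may be technical. Depth is unknown, as the lists give no counts of reads, and they do not separate the maternal from the paternal copy of a gene. A peak in bulk chromatin can come from 1 copy, from both, or from some of the cells, and these cannot be told apart here.

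Imprinted genes are expressed mainly from the copy inherited from 1 parent. The choice is carried by imprinting control regions, where DNA methylation set in the egg or in sperm is kept after fertilization with the help of the zinc finger protein ZFP57. At the *H19*-*Igf2* locus the insulator protein CTCF binds the unmethylated maternal control region. Several of these genes act on fetal growth, and *H19*, *Dlk1* and *Peg3* have been studied in muscle and its stem cells. Neither DNA methylation nor CTCF binding is part of the lists used here.

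Sequences are shown first for the places on which the results turn, because their letters can be set beside the peaks. Capitals mark letters of 4 motifs searched on both strands: TGCCGC, the hexamer of ZFP57, GGNGGCAG and CGCGNGGNG, 2 pieces of the CTCF site, and GCCATNTT, the core of YY1, a zinc finger protein. The joined form of both CTCF pieces, CGCGNGGNGGCAG, contains each of them, and the piece GGNGGCAG can hold the reverse complement of TGCCGC. All coordinates are mm10 (GRCm38), and each sequence runs 5′ to 3′ on the strand of its gene. A match describes letters and is no evidence of binding.

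The first pair of sequences lies upstream of *H19*, and each holds the joined CTCF letters. The H3K4me3 peak of replicate 1 covers the first stretch and part of the second. That of replicate 2 reaches only the first, and ATAC-seq peaks overlap parts of both.
*H19* upstream 1, chr7:142580256-142580375, minus strand: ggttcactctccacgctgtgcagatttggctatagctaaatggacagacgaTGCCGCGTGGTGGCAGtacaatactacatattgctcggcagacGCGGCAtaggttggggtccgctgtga
*H19* upstream 2, chr7:142580711-142580830, minus strand: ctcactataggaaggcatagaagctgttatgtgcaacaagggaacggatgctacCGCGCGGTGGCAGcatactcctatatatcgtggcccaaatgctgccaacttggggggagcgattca

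The next 4 promoters are RefSeq promoters, which run from 250 bases before to 50 bases after a start site. They are promoters of *Mest*, *Plagl1*, *Grb10* and *Igf2* that lie under the strongest H3K4me3 peak of the gene and hold motif letters. The *Meg3* and *Peg3* promoters also meet such a peak and are not printed, the first with 1 ZFP57 match and the second with no match. Another *Igf2* promoter, under the strongest peak in replicate 1 only, held no match.
*Mest* promoter, chr6:30737800-30738099, plus strand: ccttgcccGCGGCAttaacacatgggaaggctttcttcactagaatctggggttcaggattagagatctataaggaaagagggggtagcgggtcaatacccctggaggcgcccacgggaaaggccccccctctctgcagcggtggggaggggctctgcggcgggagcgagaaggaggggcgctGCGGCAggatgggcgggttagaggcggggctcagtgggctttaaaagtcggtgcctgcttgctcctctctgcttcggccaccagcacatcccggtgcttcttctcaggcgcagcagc
*Plagl1* promoter, chr10:13090582-13090881, plus strand: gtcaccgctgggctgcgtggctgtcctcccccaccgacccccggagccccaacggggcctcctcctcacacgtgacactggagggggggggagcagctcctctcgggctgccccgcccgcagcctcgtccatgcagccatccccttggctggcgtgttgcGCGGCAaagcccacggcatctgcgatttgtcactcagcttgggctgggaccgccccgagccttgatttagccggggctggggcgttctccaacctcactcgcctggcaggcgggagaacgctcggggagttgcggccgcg
*Grb10* promoter, chr11:12037371-12037670, minus strand: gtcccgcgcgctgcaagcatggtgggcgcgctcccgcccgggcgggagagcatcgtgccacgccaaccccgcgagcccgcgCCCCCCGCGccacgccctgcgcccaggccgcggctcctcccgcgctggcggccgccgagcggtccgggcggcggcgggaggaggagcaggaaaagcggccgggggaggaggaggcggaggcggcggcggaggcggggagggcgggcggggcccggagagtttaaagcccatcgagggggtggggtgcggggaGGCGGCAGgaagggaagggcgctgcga
*Igf2* promoter, chr7:142658755-142659054, minus strand: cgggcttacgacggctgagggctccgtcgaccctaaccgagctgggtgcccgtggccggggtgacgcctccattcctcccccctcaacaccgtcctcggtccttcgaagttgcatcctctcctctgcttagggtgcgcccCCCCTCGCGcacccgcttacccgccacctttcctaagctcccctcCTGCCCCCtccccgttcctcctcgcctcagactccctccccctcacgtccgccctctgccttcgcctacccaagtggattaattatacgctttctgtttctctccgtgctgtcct

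The remaining sequences are parts of peaks. The stretch at *Peg3* holds a pair of YY1 matches under the H3K4me3 peaks, that upstream of *Meg3* spans an ATAC-seq peak between *Dlk1* and *Meg3*, and those at *Rian* and *Mirg* surround the summits of the strongest ATAC-seq peaks of the large noncoding stretch on chromosome 12.
*Peg3* downstream of the start sites, chr7:6729442-6729641, minus strand: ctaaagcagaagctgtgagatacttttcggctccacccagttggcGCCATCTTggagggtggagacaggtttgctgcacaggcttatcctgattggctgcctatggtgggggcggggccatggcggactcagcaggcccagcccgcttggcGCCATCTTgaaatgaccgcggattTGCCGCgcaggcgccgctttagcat
*Meg3* upstream, chr12:109528176-109528367, plus strand: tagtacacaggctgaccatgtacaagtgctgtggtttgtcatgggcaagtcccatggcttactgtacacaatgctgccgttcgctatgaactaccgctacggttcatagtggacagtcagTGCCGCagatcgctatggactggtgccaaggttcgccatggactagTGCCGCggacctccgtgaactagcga
*Rian* downstream, chr12:109678137-109678286, plus strand: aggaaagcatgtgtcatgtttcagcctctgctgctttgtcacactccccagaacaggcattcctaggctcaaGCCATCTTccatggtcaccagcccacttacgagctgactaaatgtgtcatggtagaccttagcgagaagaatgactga
*Mirg* 3′ side, chr12:109749824-109749973, plus strand: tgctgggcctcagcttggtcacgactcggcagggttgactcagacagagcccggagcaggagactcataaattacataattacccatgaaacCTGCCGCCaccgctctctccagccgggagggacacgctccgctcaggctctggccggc

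A gene was counted as marked when a peak of both replicates lay within 3 kb of any of its annotated start sites. Peaks were listed by the authors for each library separately, and the value given for a peak is its fold enrichment, the signal at its summit relative to the background around it. All 10 members carried a promoter peak of ATAC-seq in both replicates, against 59.8% of the background genes. H3K4me3 marked 8 of 10 members, against 50.7%, and the exceptions were *Rian* and *Mirg*. H3K27ac marked 4 members, *Meg3*, *Peg3*, *Grb10* and *Plagl1*, against 38.9%, and H3K27me3 marked *Igf2* and *Grb10*, against 4.22%. With 10 members, 1 gene shifts a share by 10%, and the share for H3K27ac was close to the background. Members have 4 to 19 annotated start sites, and the shares were not adjusted for how many start sites a gene has.

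Combinations of marks sorted the members into few kinds. *Meg3*, *Peg3*, *Grb10* and *Plagl1* had ATAC-seq, H3K4me3 and H3K27ac together, as did 38.2% of the background genes. *H19*, *Igf2* and *Dlk1* had H3K4me3 in both replicates and H3K27ac in neither, a state found at 9.77% of genes. *Igf2* and *Grb10* had H3K4me3 and H3K27me3, as 3.3% of genes did, and *Rian* and *Mirg* had no promoter peak in any of the 6 histone lists, which held for 44.5% of genes. The background depends on the kind of gene, because no histone peak was listed at the promoters of 80.2% of lincRNA genes, the class of *Mirg*, but of 34.9% of protein-coding genes. *H19* and *Meg3* are lincRNA genes too, and H3K4me3 marked 13.2% of that class.

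Peaks of both replicates need not lie at the same place. Required to share at least 1 bp, ATAC-seq peaks remained at 9 members (59.1% of genes), H3K4me3 at 8 (50.7%), H3K27ac at 4 (38.7%) and H3K27me3 at 1, *Igf2* (3.45%). *Rian* was lost for ATAC-seq and *Grb10* for H3K27me3. In single replicates, *Mest* had H3K27ac in replicate 1 only and *Dlk1* had H3K27me3 in replicate 2 only.

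The H3K4me3 peaks of the members were weaker than those of most marked genes. In replicate 1 their strongest promoter peaks ran from 5.56 to 19.7, and in replicate 2 from 4.41 to 17.03. All 8 members lay below the median of the marked genes in both replicates, which was 23.4 and 17.4. For H3K27ac, 3 of 4 lay below the medians of 13.6 and 11.8 in both replicates, and for ATAC-seq 7 of 10 lay below 12.8 and 11.8 while *Mirg*, *Grb10* and *Plagl1* lay above. The H3K4me3 values were higher in replicate 1 for all 8 members, as was the median of all marked genes.

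**Figure D1:**
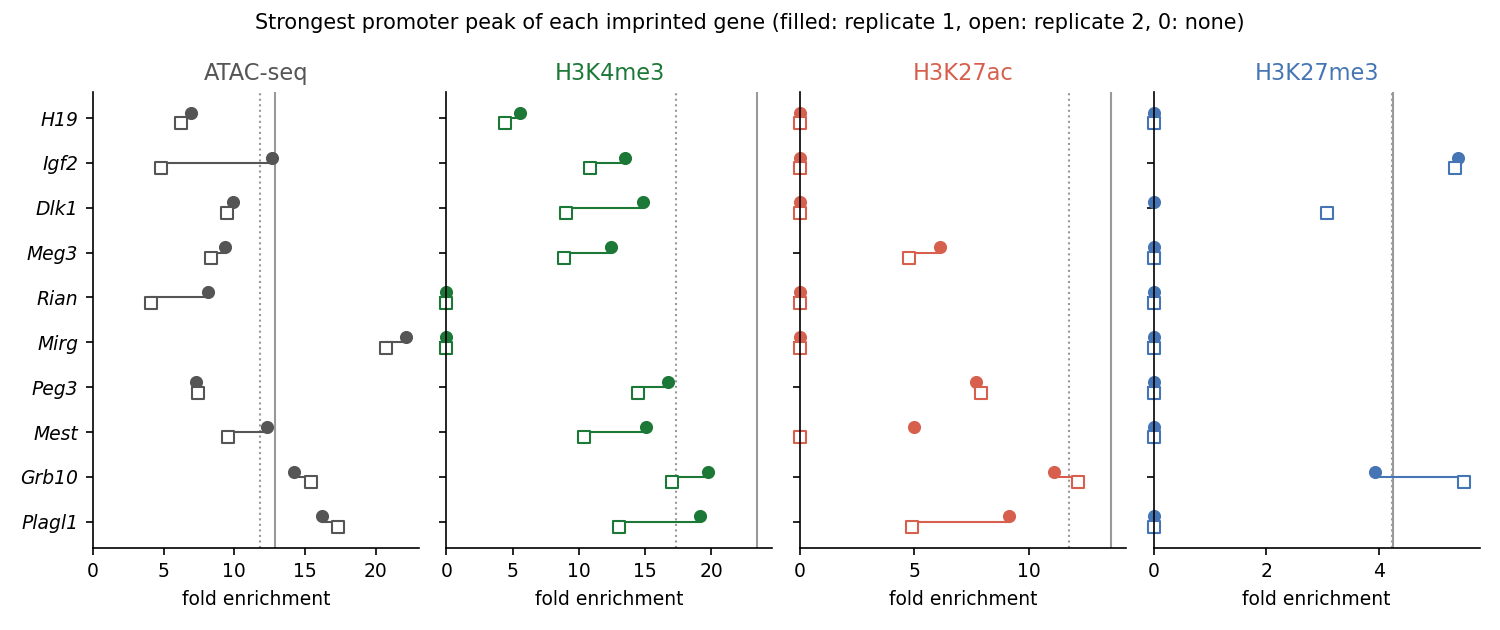
Fold enrichment of the strongest promoter peak of each member in 4 panels, 1 for each assay (filled circles, replicate 1; open squares, replicate 2; 0, no peak listed; grey lines, median of all marked genes, solid for replicate 1 and dotted for replicate 2). All 8 members with H3K4me3 lie left of the grey lines, and only *Igf2* and *Grb10* have H3K27me3 in both replicates.

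*H19*, a noncoding RNA expressed from the maternal copy and the host of miR-675, lies on the minus strand at chr7:142575529-142578143. An ATAC-seq peak sat just before its start site in both replicates, at 6.91 and 6.25 (6.58 ± 0.465, SD, n = 2), with its near edge 36 bp upstream where both peaks overlap. H3K4me3 covered a start site at 4.49 and 4.41 (4.45 ± 0.0552, n = 2), the lowest H3K4me3 of the marked members. No H3K27ac or H3K27me3 peak was listed within 3 kb of its start sites. Of 21 miRNA hairpins annotated inside the members, 1 lay under any peak, the hairpin of miR-675, which the H3K4me3 peak of replicate 1 covered. Most of the 21 lie in genes without a histone peak, 14 in *Mirg* and 3 in *Rian*. The share of all annotated hairpins under a peak was not counted.

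A second patch of H3K4me3 lay 2186 bp upstream of *H19*, outside the gene, at 5.56 and 4.41 (4.99 ± 0.817, n = 2). ATAC-seq peaks of both replicates lay within the same 626 bp, with 4.32 and 3.53 at 1 place and 3.72 and 4.05 at the other. A further replicate 1 peak of 4.53 in these 626 bp had no partner in replicate 2. The joined CTCF letters occurred 2 times there, 2166 and 2621 bp upstream of the gene start. The first was covered by ATAC-seq in replicate 1 only, through the unpaired peak of 4.53, and the other in replicate 2 only. The H3K4me3 peak of replicate 1 covered the first and reached the other by 1 bp, while that of replicate 2 reached neither. Among RefSeq promoters of 300 bases, 0.122% hold the joined letters. Windows of 300 bases around ATAC-seq summits held them at 3 of 164 member peaks in replicate 1 and 2 of 113 in replicate 2. All of these peaks lie in this stretch, and neighbouring windows overlap. They hold the same 2 occurrences, so the counts describe 1 place and not the member peaks as a set. Of all ATAC-seq peaks, 0.0512% and 0.0636% held the joined letters.

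Further from *H19*, H3K27ac was found on both sides. Downstream, a cluster 26.5 to 27.5 kb from the gene start had H3K27ac at up to 6.58 in replicate 1 and 4.78 in replicate 2, with an ATAC-seq peak of 9.49 and 10.1 close by. Next to it lay the promoter of the noncoding gene *Nctc1*, with H3K4me3 at 7.72 and 5.81 and H3K27ac at up to 6.13 and 5.77. Upstream, 22.6 and 22.2 kb from the gene start and between *H19* and *Igf2*, H3K27ac was listed at 5.37 and 6.25 (at chr7:142600018-142600862 in replicate 1). The promoter of *Mrpl23*, a gene of the mitochondrial ribosome at the edge of the window, was far stronger, with H3K4me3 at 31.4 and 18.8 and H3K27ac at 28.5 and 26.4. *H19* had 9 H3K27ac peaks in its window in each replicate, more per length than 96.8% and 98.1% of background genes, and none of them at its own promoter.

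*Igf2*, which encodes a fetal growth factor expressed from the paternal copy, lies next to *H19* at chr7:142650766-142666816. Its H3K4me3 peaks were strongest at the start site at 142659489, an internal one, at 13.5 and 10.8 (12.1 ± 1.87, n = 2). The peak of replicate 1 was 4301 bp wide, wider than 98.4% of the list, and in replicate 2 the same ground held 4 separate peaks, the widest of 2041 bp. No H3K27ac peak was listed at its promoters in either replicate. Open chromatin under the H3K4me3 was weak, since the ATAC-seq peaks shared by both replicates there had at most 4.92 and 4.81. The strongest ATAC-seq peak, 12.7, was 107 bp wide, lay near another start site and had no partner in replicate 2.

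Polycomb-type marking of *Igf2* was found in both replicates. Within 3 kb of its start sites, 5 H3K27me3 peaks were listed in replicate 1 and 7 in replicate 2, and the strongest pair overlapped at 5.42 and 5.35 (5.39 ± 0.0456, n = 2), above the median of marked genes, 4.26 and 4.25. Apart from 1 weak peak of replicate 1, they lay between the outermost and the H3K4me3-marked start site, and 3 of them in each replicate overlapped H3K4me3 over 710 and 555 bp. Whether both marks sat on the same copy, on opposite copies or in different cells cannot be told apart from the lists. The strongest pair had higher values than 92.8% and 91.1% of the peaks of their lists. Its −log10 q was 4.23 and 4.73, and the call was lost where at least 5 was asked of each peak.

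**Figure D2:**
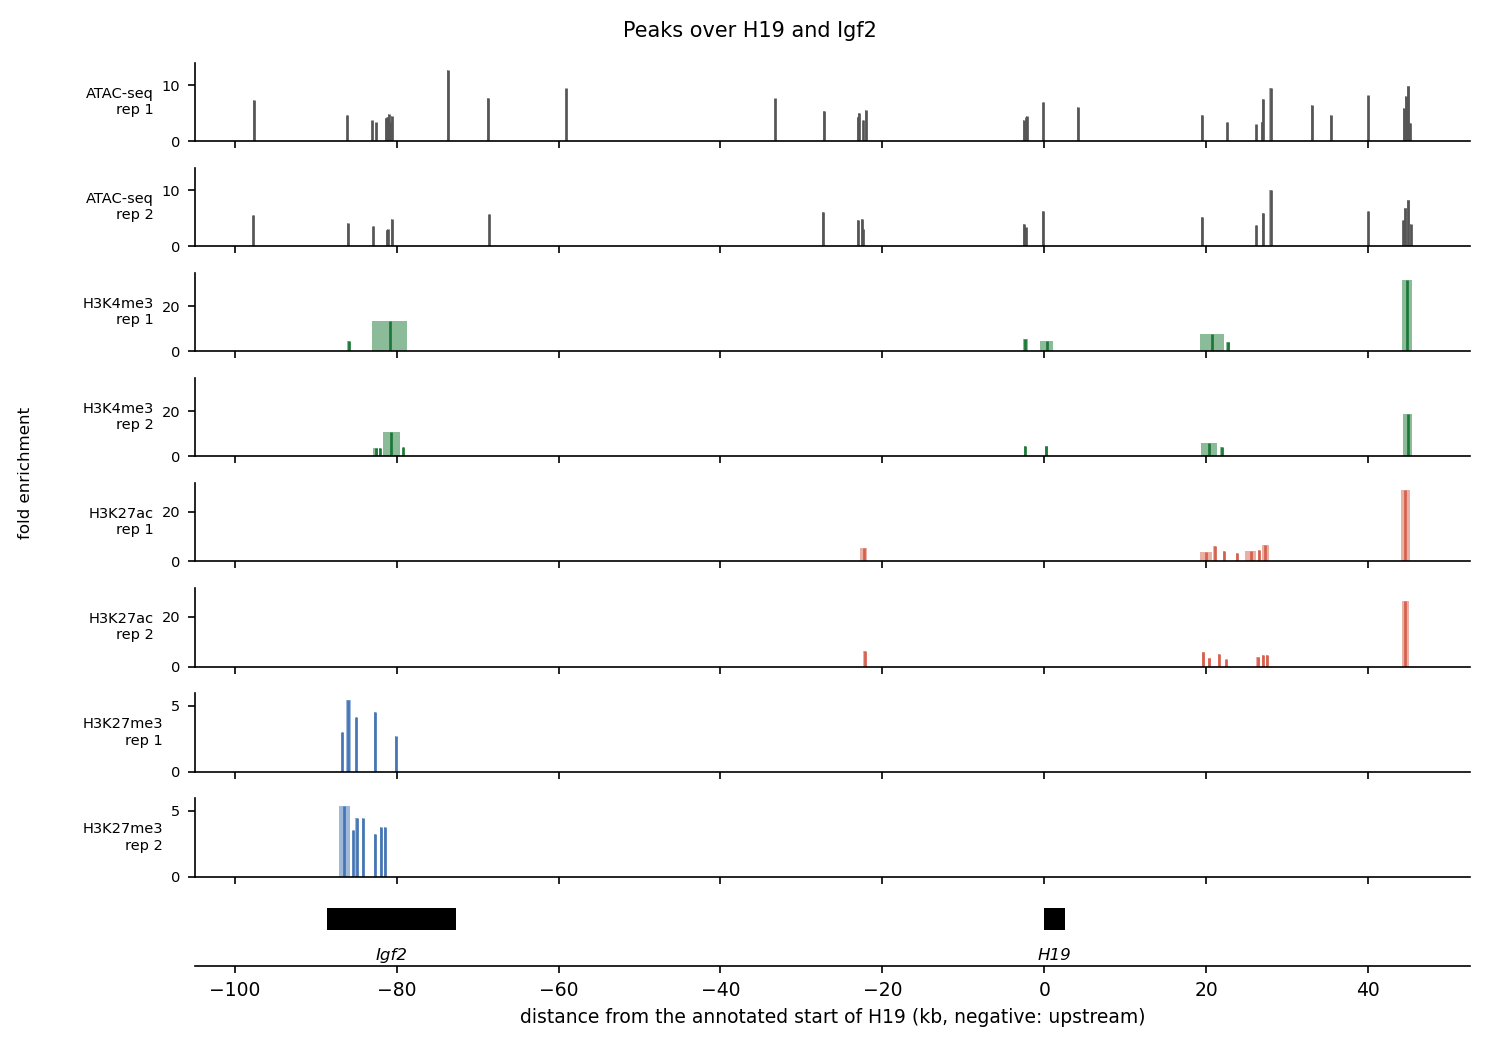
Peaks of the 8 lists over *H19* and *Igf2* (height, fold enrichment; line, peak centre; shading, peak width; x axis, kb from the start of *H19*, upstream negative). *Igf2* carries H3K4me3 and H3K27me3 without H3K27ac, while H3K27ac lies 22.2 to 22.6 kb upstream and 19.7 to 27.5 kb downstream of *H19* and at the *Mrpl23* promoter.

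On chromosome 12, *Dlk1* encodes a transmembrane protein of the Notch ligand family and is expressed from the paternal copy, at chr12:109452823-109463336. Its promoter was open at 9.88 and 9.46 (9.67 ± 0.299, n = 2), with the peak over a start site. H3K4me3 reached 14.8 and 9.05 (11.9 ± 4.08, n = 2) and no H3K27ac was listed. H3K27me3 was listed in replicate 2 only, 447 bp from a start site, at 3.08 with a −log10 q of 0.451, while the lowest −log10 q in the lists of the other assays was 1.32. *Dlk1* had many distal ATAC-seq peaks, 21 and 20, of which 19 and 18 overlapped a peak of the other replicate. Upstream the strongest lay 34.8 and 34.7 kb from the gene start at 11.0 and 10.7, and no H3K27ac peak lay anywhere in the window of the gene.

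*Meg3*, a noncoding RNA of the maternal copy at chr12:109541001-109571726, was the only member of the domain with H3K27ac. ATAC-seq over its start was 9.37 and 8.33 (8.85 ± 0.730, n = 2). H3K4me3 was 12.4 and 8.88 (10.6 ± 2.50, n = 2), and H3K27ac was 6.13 and 4.78 (5.46 ± 0.955, n = 2). The H3K27ac peaks were weaker than those of most marked genes, since 13.9% of them in replicate 1 and 5.67% in replicate 2 had a lower value. With a −log10 q of at least 5 asked of each peak, *Meg3* no longer counted as marked by H3K27ac. No H3K27me3 peak lay in its window in either replicate.

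Between *Dlk1* and *Meg3* the strongest ATAC-seq peak had 12.9 and 9.66 and lay 35.1 kb upstream of *Meg3* in both replicates. Closer to *Meg3*, 12.7 kb upstream, a weaker ATAC-seq peak was listed at 4.26 and 5.41. The replicate 2 peak, printed above, holds 2 ZFP57 letters within 192 bases. A single H3K4me3 peak of 2.81 lay 12.5 kb upstream in replicate 2 only.

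*Rian*, at chr12:109603940-109661716, and *Mirg*, at chr12:109729764-109749460, are noncoding RNAs that host small nucleolar RNAs and miRNAs and are expressed from the maternal copy. Neither had a histone peak at its promoters or in the gene. From the end of the *Meg3* H3K4me3 peak to the next histone peak, 218 kb (chr12:109542935-109761389) held 0 histone peaks in any of the 6 lists. The peak that ended this stretch was an H3K27me3 peak of replicate 2 with 3.08 and a −log10 q of 0.451. *Rian* lay 61.0 kb from the nearest histone peak, and 22.003% of background genes lay as far or farther. For *Mirg* the distance was 11.9 kb and the share 34.8%.

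The same ground was not closed. Within these 218 kb, 19 ATAC-seq peaks were listed in replicate 1 and 11 in replicate 2. A peak past the end of *Rian*, 74.3 kb from its start, had 23.8 and 21.1, and the peak past the 3′ end of *Mirg* had 22.1 and 20.7 (21.4 ± 1.03, n = 2). Both sequences are printed above, the first with a YY1 match and the second with overlapping ZFP57 and CTCF letters. The peak at *Mirg* counted as a promoter peak only because it lay 1716 and 1709 bp past an internal start site near the 3′ end. At *Rian* the promoter peaks of the replicates, 8.17 and 4.13, lay at different start sites and did not overlap. With promoters of 1 kb neither gene kept its ATAC-seq call.

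Other open places in that domain repeated between replicates. The promoter of *B830012L14Rik*, a noncoding gene between *Rian* and *Mirg*, had ATAC-seq at 11.5 in both replicates. A peak 44.2 kb from the start of *Mirg* had 17.1 and 19.7. No histone peak of any list overlapped either of them.

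**Figure D3:**
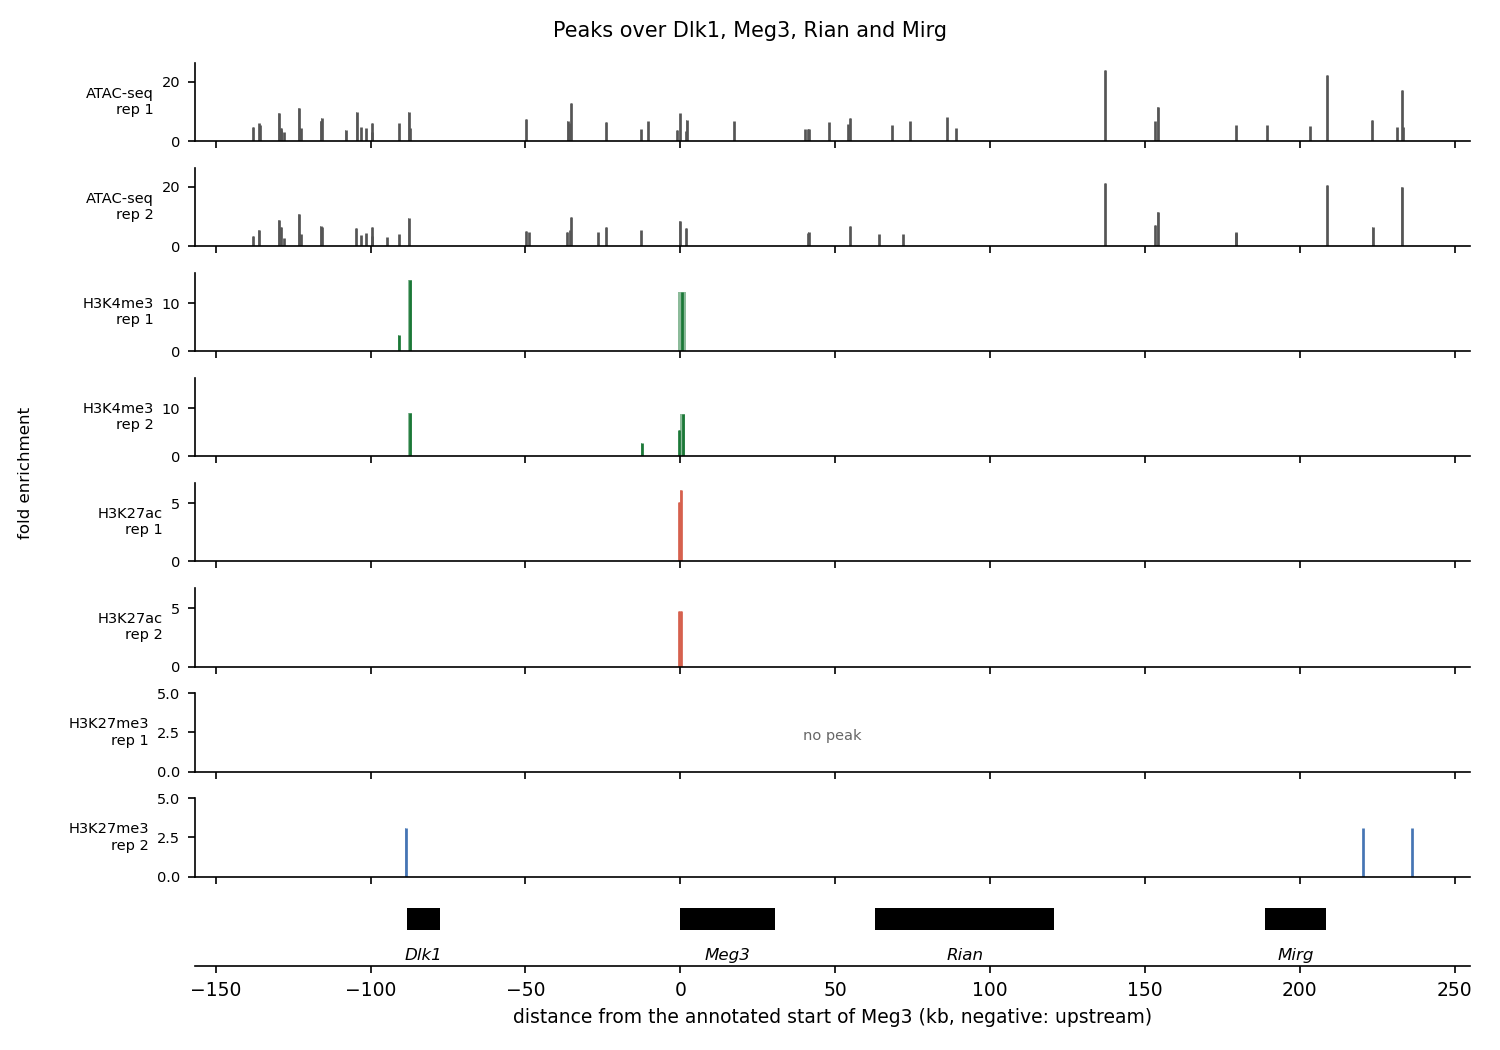
Peaks of the 8 lists over *Dlk1*, *Meg3*, *Rian* and *Mirg* (height, fold enrichment; line, peak centre; shading, peak width; x axis, kb from the start of *Meg3*). Histone peaks stand at *Dlk1* and *Meg3*, and the 218 kb that follow hold ATAC-seq peaks of up to 23.8 and no histone peak.

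*Peg3*, a zinc finger gene of the paternal copy, lies at chr7:6703892-6730431 and shares its promoter with *Usp29*, which is read the other way. Open chromatin over its start sites was modest, at 7.28 and 7.45 (7.36 ± 0.115, n = 2). H3K4me3 was 16.7 and 14.4 (15.6 ± 1.60, n = 2) in peaks of 4936 and 3454 bp, wider than 99.1% and 98.3% of the lists. H3K27ac was 7.68 and 7.93 (7.81 ± 0.181, n = 2) and was strongest inside the gene, 926 bp downstream of a start site. No H3K27me3 peak lay in its window.

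The widest stretch of H3K4me3 at *Peg3* held 8 YY1 matches in replicate 1 and 7 in replicate 2. All were on the strand of the gene and lay 835 to 2460 bp downstream of its outermost start site, and 4 were under ATAC-seq peaks of both replicates. Of the 363 and 596 H3K4me3 peaks within 20% of the same width, the *Peg3* peak itself included, 0.275% and 0.336% held as many. *Zim1*, a zinc finger gene of the same cluster whose promoter lies in the window of *Peg3*, had the strongest ATAC-seq peak near any member, 28.9 and 29.9, with H3K4me3 at 13.6 and 7.62.

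*Mest*, a paternally expressed gene of the hydrolase fold family at chr6:30723547-30748465, was marked at internal start sites and not at its outermost one. H3K4me3 lay over the start sites near 30738050 at 15.1 and 10.4 (12.7 ± 3.29, n = 2). An ATAC-seq peak of 8.88 and 9.22 sat on these sites, and a stronger one of 12.3 and 9.58 (11.0 ± 1.94, n = 2) lay 824 bp upstream of them. H3K27ac was listed in replicate 1 only, at 4.98. The strongest histone peaks in its window belonged to the promoter of *Cep41*, which encodes a centrosomal protein, with H3K4me3 at 25.1 and 16.1 and H3K27ac at 17.5 and 13.01. A distal patch 49.2 kb upstream of the annotated start had H3K27ac at 6.13 and 5.15 together with weak H3K4me3 at 3.76 and 2.53.

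Counted under the strongest H3K4me3 promoter peak of each member, *Mest* also had the most ZFP57 letters. Under its strongest H3K4me3 peak 12 matches were counted in each replicate, or 4.50 and 5.76 per kb, against 0.605 and 0.714 per kb over all H3K4me3 peaks. Of the 2400 and 2649 peaks of like width, which include the *Mest* peak itself, 0.0417% and 0.0378% held as many. The shares that follow also count the member's own peak. *Peg3* had 8 and 8 (1.93% and 1.34% of peaks of like width held as many), *Plagl1* 6 and 6 (3.44% and 1.36%) and *Grb10* 5 and 5 (13.8% and 12.6%). Weaker promoter peaks are not in these counts. The *Grb10* H3K4me3 peak of replicate 1 at chr11:12026053-12026312, 260 bp wide, held 4 matches. *Dlk1* and *Igf2* were close to the list, with 1 match in each replicate for *Dlk1* and 2 and 1 for *Igf2*. *H19* had 2 and 0, under different peaks, and *Meg3* had 1 and 0. The letters TGCCGC hold a CpG and are common in GC-rich promoters, 11.6% of RefSeq promoters holding them, while GGNGGCAG was found in 12.6%, CGCGNGGNG in 8.60% and GCCATNTT in 6.05%.

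**Figure D4:**
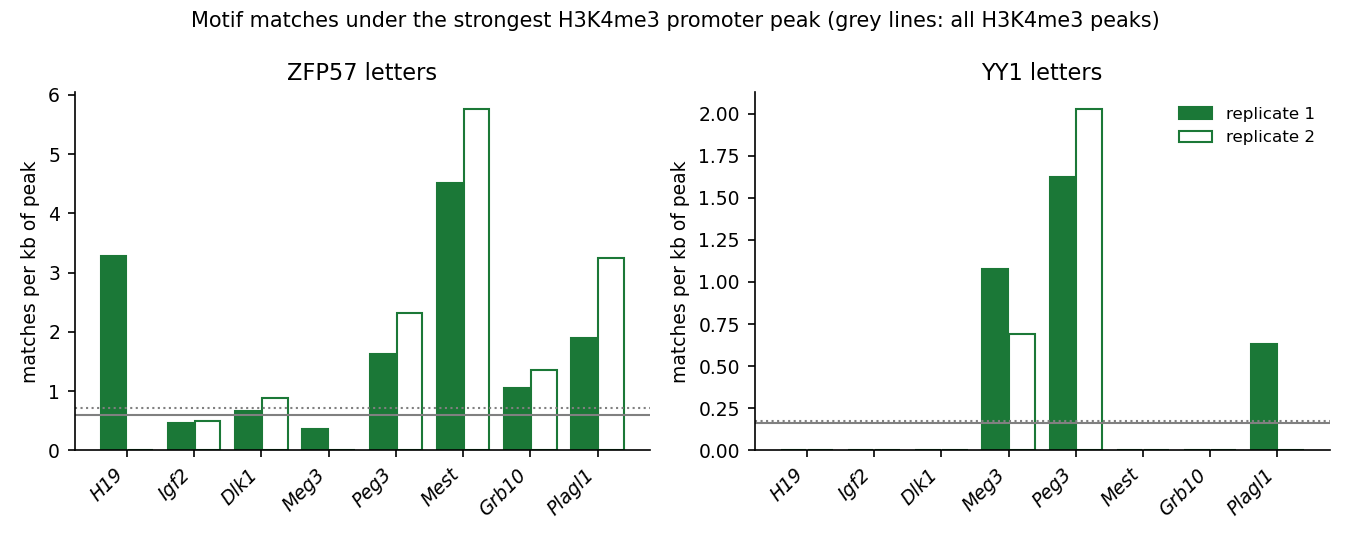
Matches to the ZFP57 and YY1 letters per kb under the strongest H3K4me3 promoter peak of 8 members (filled bars, replicate 1; open bars, replicate 2; grey lines, all H3K4me3 peaks, solid for replicate 1 and dotted for replicate 2). *Mest* has the tallest ZFP57 bars, 4.50 and 5.76 per kb, and *Peg3* the tallest YY1 bars, 1.62 and 2.03 per kb.

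*Grb10*, an adaptor protein that restrains insulin and growth factor signalling, is expressed from the maternal copy outside the nervous system and lies at chr11:11930508-12038683. It had the strongest H3K4me3 of the members, 19.7 and 17.03 (18.4 ± 1.92, n = 2), in peaks of 4758 and 3708 bp that were wider than 99.0% and 98.7% of the lists. H3K27ac was also strongest here, at 11.1 and 12.1 (11.6 ± 0.723, n = 2), over the start site at 12037401. Its strongest ATAC-seq promoter peak, 14.2 and 15.4 (14.8 ± 0.850, n = 2), lay at another start site, 12026324, where H3K4me3 was listed in replicate 1 only, at 5.38. The marks of *Grb10* were thus spread over several start sites.

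H3K27me3 at *Grb10* was listed in both replicates, and not at the same positions. Replicate 1 had 2 promoter peaks, the stronger of 3.93 at chr11:12027324-12027486, and replicate 2 had 6, the strongest of 5.52 at chr11:12037386-12037763 over the start site at 12037401. No peak of 1 replicate overlapped a peak of the other, though both had peaks beside the start sites at 12037401 and 12026324. Overlap with H3K4me3 came to 116 and 664 bp. The H3K27me3 lists kept weaker peaks than the others, and the strongest promoter peak of *Grb10* had a −log10 q of 1.49 in replicate 1 and 5.51 in replicate 2.

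Within the body of *Grb10*, an ATAC-seq peak 106 kb from the annotated start, near the 3′ end, had 15.6 and 17.1, the highest in the window of this gene. An H3K27ac peak beside it had 4.22 and 5.15. In replicate 1, a further 7 distal H3K27ac peaks were listed and none of these had a partner in replicate 2.

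**Figure D5:**
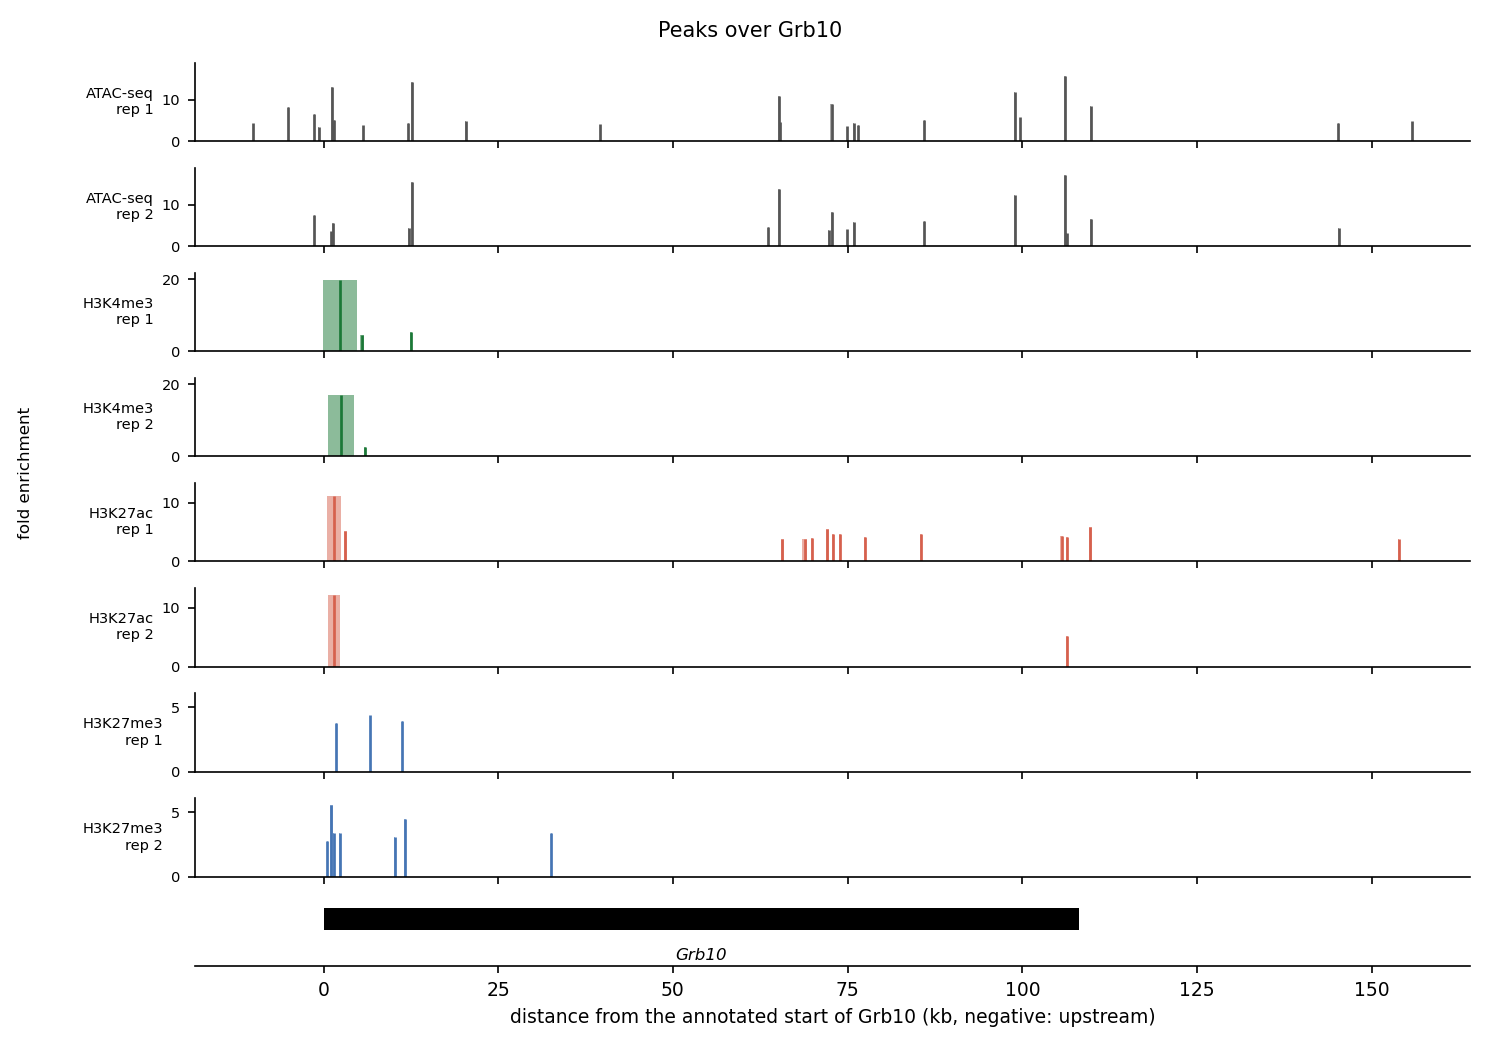
Peaks of the 8 lists over *Grb10* (height, fold enrichment; line, peak centre; shading, peak width; x axis, kb from the annotated start, which is at 0 with the gene to its right). H3K4me3 and H3K27ac are tallest near the start, H3K27me3 bars of the replicates do not coincide, and the tallest ATAC-seq bars stand 106 kb inside, at 15.6 and 17.1.

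*Plagl1*, a zinc finger gene of the paternal copy that is known to regulate other imprinted genes, lies at chr10:13060504-13131694. As at *Mest*, its marks sat at internal start sites, from 13090691 on, and not at the outermost one. ATAC-seq there was 16.2 and 17.3 (16.8 ± 0.796, n = 2) in a peak that covered 8 start sites. H3K4me3 was 19.2 and 13.04 (16.1 ± 4.33, n = 2) and H3K27ac 9.14 and 4.91 (7.03 ± 2.99, n = 2), each higher in replicate 1. Inside the gene, before this promoter, ATAC-seq peaks of 18.7 in both replicates and of 16.5 and 15.6 lay 19.9 and 22.1 kb from the annotated start. The first had no histone peak over it, and the other had H3K27ac at 4.75 in replicate 1 only.

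Windows of 50 kb either side of each gene were then counted. ATAC-seq peaks of both replicates were found in the windows of all 10 members, against 80.7% of genes, and H3K4me3 in 8 against 70.2%. H3K27ac was found in 6 (61.8%) and H3K27me3 in 2 (12.4%), again *Igf2* and *Grb10*. Counted once where windows overlap, the members' windows held 164 and 113 ATAC-seq, 23 and 26 H3K4me3, 44 and 22 H3K27ac and 8 and 18 H3K27me3 peaks in replicates 1 and 2. Of the ATAC-seq peaks, 67.7% and 87.6% overlapped a peak of the other replicate, beside 62.9% and 84.7% in the whole lists. Of the H3K27me3 peaks it was 50.0% and 16.7%, beside 68.3% and 34.8%. H3K27ac peaks were shared at 43.2% and 90.9%, beside 64.6% and 91.0%, and H3K4me3 peaks at 73.9% and 96.2%, beside 79.0% and 98.7%. The least shared assay was thus H3K27ac in replicate 1 and H3K27me3 in replicate 2. Per 100 kb of window, the median member held 14.01 and 8.09 ATAC-seq peaks and the median background gene 7.79 and 5.32. *H19* and *Dlk1* were the densest members, at 23.4 and 21.7 in replicate 1.

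The genes whose 8 promoter values were most like those of the 4 fully marked members were found by distance over log2(fold + 1). For *Peg3* the nearest was *Usp29*, at a distance of 0 because both share the promoter, and then *Pdgfrl* at 0.31. For *Meg3* these were *Ttyh1* at 0.24 and *Col5a3* at 0.27, and for *Plagl1* the gene given is *Smpd1* at 0.23. *Grb10* had no close partner, as *Ets1* and *Cacna1a* lay at 0.49 and 0.63, and both also carried H3K27me3.

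The label of the cells was set beside promoter marks of known cell type genes. H3K4me3 in both replicates marked 13 of 13 MuSC genes, 5 of 10 genes of fibro-adipogenic cells, 5 of 10 of endothelial cells, 4 of 9 of blood cells and 5 of 10 of myofibres, beside 50.7% of the background genes and 60.8% of the protein-coding ones. H3K27ac did so for 12 of 13, 3 of 10, 1 of 10, 1 of 9 and 3 of 10, beside 38.9% and 46.6%. The whole lists held 140716 and 94382 ATAC-seq, 20512 and 18001 H3K4me3, 24209 and 18584 H3K27ac and 6064 and 10458 H3K27me3 peaks. The part of other cells in the members' peaks was not tested.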

How the data were processed

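ATAC-seq and ChIP-seq reads of 8 MuSC libraries were processed by the authors, who trimmed them with Trim Galore 0.6.10, aligned them to mm10 with BWA 0.7.17-r1188, dropped low mapping quality and duplicates with SAMtools 1.5 and Sambamba, and removed blacklisted regions with BEDTools. Tn5 offsets were corrected with deepTools 3.5.5, and MACS2 2.2.6 called peaks for each library, which can join or split neighbouring peaks. The deposited lists give the fold enrichment (a ratio to local background) at each summit and the −log10 of the p-value and q-value. H3K4me3 and H3K27me3 share 1 input sample in the series, and H3K27ac has another, so replicates of a mark have no separate inputs. The paper's methods do not state whether peak calling used these inputs. The score column, which the authors deposited as a rescaled p-value or q-value, was not used. The H3K27me3 lists go down to a −log10 p of 3.01 whatever the q-value, while all peaks of the others have a q-value of at most 0.05 (lowest −log10 q 1.32 and 1.32 for H3K27ac, 1.33 and 1.39 for H3K4me3, 1.73 and 2.02 for ATAC-seq), so H3K27me3 counts include weaker peaks. No counts of reads are listed, so that depth and precision of a fold are unknown.

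Peaks were joined to GENCODE M21 with Python 3.11.15, pandas 2.3.3, numpy 2.4.6 and pysam 0.24.0. Promoters reached 3 kb to each side of every annotated start site, windows were the gene and 50 kb either side, and overlap counted from 1 bp. No test was run, and shares over 27792 genes stand beside the members' counts. Motif letters were searched in the mm10 genome and in 32851 RefSeq promoters (GRCm38.p6), where 9 members had 16 entries. The members, motif letters, marker lists and 59 other imprinted genes were chosen with earlier results of these data known, the joined CTCF letters after their pieces had been counted. Named beside the members are the strongest peak of each assay outside the promoter when found in both replicates, genes whose promoter holds it, imprinted genes with H3K27me3 in both replicates, and the 2 genes nearest to each fully marked member over 8 values of log2(fold + 1), of which 1 for *Plagl1* is not reported here. The *Nctc1*, *B830012L14Rik* and other peaks described besides were chosen after their values were seen. The peak assignment was tested on simulated data of 1000 genes and found 100% of planted promoter peaks again.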

Additional observations from a re-analysis of the deposited data

How the results depend on the processing

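Taking the outermost start site alone, chosen after seeing the data, left 6 members with ATAC-seq and 5 with H3K4me3, as *Mest* and *Plagl1* lost both calls, *Rian* and *Mirg* lost ATAC-seq and *Igf2* lost H3K4me3. For H3K27me3, 0 members had a promoter peak with a −log10 q of at least 5 in both replicates, and 1 member had overlapping peaks, also chosen after seeing the data. Shares of background genes were not counted for the outermost start site or for the q limit. Whether the members' counts under these settings differ from the background was therefore not tested. The mean number of window peaks fell to 86.5 for ATAC-seq with 20 kb windows (from 138.5) and to 18 for H3K27ac with a −log10 q of at least 5 (from 33). For H3K27me3 it was 0.5 with that limit and 7 with a q of at most 0.05 (from 13). With 1 replicate left out, members marked ranged from 10 to 10 for ATAC-seq, 8 to 8 for H3K4me3, 4 to 5 for H3K27ac and 2 to 3 for H3K27me3, and window peaks from 113 to 164, 23 to 26, 22 to 44 and 8 to 18, the H3K27me3 peaks being 8 without replicate 2. Promoters of 1 kb moved 1 of 22 mean folds beyond the spread of replicates, that of H3K27me3 at *Igf2*, to 4.48. No paired analysis was possible because the results come from no test. Unknown depth means that a missing peak is not evidence of a missing mark.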

Other observations

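Other imprinted genes were set beside the members. Of 59 further imprinted genes, 46 had H3K4me3 at the promoter in both replicates (50.7% of background genes did), 25 had H3K27ac (38.9%) and 9 had H3K27me3 (4.22%). H3K4me3 with H3K27ac in neither replicate was found at 16 (9.77%), and no histone promoter peak was listed at 10 (44.5%). These are counts of genes and not of separate peaks. Their H3K27me3 calls were not checked at a −log10 q of at least 5 or for overlap of the replicates. *Snrpn* and *Snurf* had the same H3K4me3 values, as did *Peg10* and *Sgce*, and *Usp29* had those of the member *Peg3*. All 9 genes with H3K27me3 also had H3K4me3, as did 916 of the 1173 background genes with H3K27me3, so this is common in these lists. *Sfmbt2*, a Polycomb group gene, had H3K27me3 at 5.25 and 6.50 in replicates 1 and 2, and *Zdbf2*, a paternally expressed gene, had 4.68 and 4.49 and alone among the 9 had H3K27ac in both replicates.

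Genes that flank the *Dlk1*-*Meg3* domain were among the 9. *Dio3*, an enzyme that inactivates thyroid hormone, had H3K27me3 at 4.88 and 5.13 with weak H3K4me3 at 3.95 and 3.81. *Begain*, on the other side of *Dlk1*, had H3K27me3 at 4.13 and 4.45 with H3K4me3 at 16.2 and 11.8. *Klf14* had 4.68 and 4.11, *Rasgrf1* 4.50 and 4.11, *Ascl2* 3.75 and 4.11, *Phlda2* 3.21 and 5.13 and *Kcnq1* 3.38 and 3.08 for H3K27me3. The median strongest H3K4me3 of the marked genes among the 59 was 14.4 and 11.1, and that of the members was 14.9 and 10.6.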
